A study of Homo sapiens with 6 samples.

Results

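The transcripts described here encode 2 secreted or membrane-bound matrix proteases (MMP9 and MMP14), a collagen crosslinking enzyme (LOXL2) and 2 proteins that bind the extracellular matrix (SPARC and MFAP5). They were taken by symbol from a deposited RNA-seq table of 1705 genes, in which each of the 5 has 1 entry. PC9-GR, a gefitinib-resistant derivative of the human lung adenocarcinoma line PC9, was compared with parental PC9, with 3 libraries from independent cultures in each. Both lines carry an EGFR exon 19 deletion, are labelled epithelial, and were grown in RPMI-1640 with fetal bovine serum. PC9-GR was selected in gefitinib, an inhibitor of the EGFR kinase, at doses rising from 0.5 to 10 µM, was maintained at 10 µM, and spent 7 days without the drug before RNA was taken. PC9 had no drug step in the labels. The labels do not say whether PC9-GR is 1 clone or a pool, so it stands as 1 derived line, and changes tied to resistance and other changes of that line cannot be told apart.

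Expression is given as FPKM, the fragments of a transcript scaled to its length and to the mapped fragments of the library, which allows levels of different genes to be set side by side. Without counts in the table, the depth of the libraries is unknown and intervals for counting error cannot be had. The authors listed only genes they found changed: the smallest absolute log2 ratio in the authors' deposited table is 1.00 and the largest p-value is 0.0497. The 5 genes were picked from it with their differences known, so those differences are described without a test. FPKM over the listed genes summed to 16705 to 17114 in PC9-GR libraries and to 28346 to 30541 in PC9 libraries, and 1116 to 1150 listed genes reached 1 FPKM in PC9-GR libraries, against 987 to 1002 in PC9 libraries.

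Matrix metalloproteases are zinc-dependent enzymes that are made as inactive precursors and cut collagens, laminins and other matrix proteins. Tissue inhibitors of metalloproteases (TIMPs) and the membrane protein RECK block them. Lysyl oxidases such as LOXL2 oxidise lysines in collagen and elastin, which then form crosslinks. Matricellular proteins such as SPARC bind matrix and cells without being structural fibres themselves, while MFAP5 is a small glycoprotein of fibrillin microfibrils. In carcinomas much of the matrix and many of its proteases are supplied by fibroblasts and leukocytes, which a cell line in culture lacks.

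MMP9, MMP14, LOXL2 and SPARC were higher in PC9-GR, and MFAP5 was lower. The authors' ratio is above 1 for those 4 and for 51.1% of listed genes, and below 1 for MFAP5 and 48.9%. A filter kept, for testing, the genes with 1 FPKM or more in 3 or more libraries. In that fit over the whole table (limma on log2(FPKM + 1), adjusted p under 0.05), 99.7% of the 1207 tested genes were called, the 5 among them, and nothing is read from that count because the table and the genes were chosen on this contrast. The PC9-GR and PC9 libraries did not overlap for any of the 5 genes, as for 94.8% of the 1705 listed genes. The difference in mean log2(FPKM + 1), PC9-GR minus PC9, was 3.56 for MMP9, 3.49 for SPARC, 1.98 for LOXL2, 1.12 for MMP14 and -3.65 for MFAP5. Among the 1207 tested genes MMP9 and SPARC had the increases of rank 4 and 5, LOXL2 and MMP14 those of rank 66 and 284, and MFAP5 the decrease of rank 7. On this scale MMP14 thus had the smallest difference of the 5, and MMP9, SPARC and MFAP5 were among the most changed tested genes. The scale understates the change of low genes, so ranks on it depend on level. PDGFRB, with a ratio of 34.6, had the increase of rank 67, while SPARC, with 11.7, had that of rank 5. MMP9, under 1 FPKM in every PC9 library, passed the filter through PC9-GR alone.

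**Figure D1:**
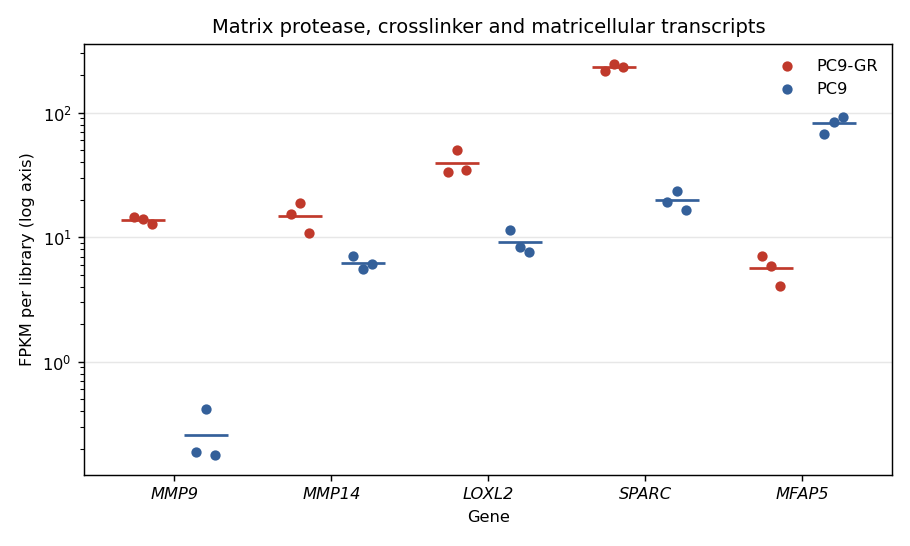
FPKM of the 5 genes in each library on a log axis, PC9-GR libraries in red and PC9 libraries in blue, with horizontal lines at the group means (n = 3 each). MMP9 lies between 12.8 and 14.5 FPKM in PC9-GR and between 0.178 and 0.417 FPKM in PC9, while MFAP5 lies between 4.03 and 7.09 FPKM in PC9-GR and between 67.9 and 93.1 FPKM in PC9.

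MMP9, or gelatinase B, is a secreted protease that cleaves denatured collagen and the type IV collagen of basement membranes. It measured 14.5, 14.1 and 12.8 FPKM in PC9-GR replicates 1, 2 and 3, against 0.188, 0.417 and 0.178 FPKM in PC9 replicates 1, 2 and 3. The means were 13.8 ± 0.873 FPKM in PC9-GR and 0.261 ± 0.135 FPKM in PC9 (SD, n = 3 each), a ratio of 53.0. The lowest PC9-GR library was 30.8 times the highest PC9 library. The PC9-GR libraries were close to one another (coefficient of variation 6.32%), whereas the PC9 libraries were low and spread (51.9%), with replicate 2 above the other two. The size of the ratio therefore rests on a small and uncertain PC9 level, and with a pseudocount of 0.1 in place of 1 the log2 difference was 5.33. The authors' deposited table gives a ratio of 55.1 from its own group values.

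The position of MMP9 may bear on its value, which was not tested. The table places MMP9 (ENSG00000100985) at chr20:44637546-44688784 in a build it does not name, a locus of 51239 bp, whereas the gene spans 7654 bp on the plus strand in GENCODE 29 (GRCh38, chr20:46008908-46016561). The same locus is given to RP11-465L10.10 (ENSG00000204044), which measured 2.28, 2.38 and 2.33 FPKM in PC9-GR and 0.443, 0.345 and 0.540 FPKM in PC9. GENCODE 29 annotates 1 gene overlapping MMP9, the antisense transcript SLC12A5-AS1 on the opposite strand. The kit is strand-specific per the labels, but the strand setting of the quantification is not given in the sources used here, so reads of MMP9 and of an overlapping transcript may have been split. RP11-465L10.10 was the lower of the 2 in every PC9-GR library and the higher in PC9 replicates 1 and 3.

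MMP14, or MT1-MMP, is anchored in the plasma membrane, cuts fibrillar collagen next to the cell and activates the precursor of MMP2. It measured 15.2, 18.7 and 10.8 FPKM in PC9-GR replicates 1, 2 and 3, against 7.06, 5.52 and 6.07 FPKM in PC9 replicates 1, 2 and 3. PC9-GR averaged 14.9 ± 3.99 FPKM and PC9 6.22 ± 0.781 FPKM (SD, n = 3 each), a ratio of 2.40. PC9-GR was the more variable group, with its highest library 1.74 times its lowest, and the lowest PC9-GR library was only 1.53 times the highest PC9 library. Among the genes described here MMP14 had the smallest gap between the groups. Leaving out PC9-GR replicate 2 gave a log2 difference of 0.94 and leaving out PC9-GR replicate 3 gave 1.32. In GENCODE 29 it lies on the plus strand at chr14:22836557-22849027 (GRCh38), 12471 bp with no overlapping gene, and the locus in the table has nearly the same width (12472 bp).

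The 2 other listed metalloproteases were also higher. Of 23 matrix metalloproteases, 4 are in the table, and besides MMP9 and MMP14 these are MMP7 and MMP16. Both stayed under 1 FPKM in every PC9 library and passed the filter through PC9-GR alone, so they could enter the test only as higher genes and nothing is read from their calls by limma (background for higher calls 48.4%). MMP7, a small secreted protease known as matrilysin, measured 1.60, 6.01 and 5.83 FPKM in PC9-GR replicates 1, 2 and 3, against 0.368, 0.447 and 0.336 FPKM in PC9. Replicate 1 of PC9-GR stood well below the other two but above every PC9 library. MMP16, a membrane-type relative of MMP14, averaged 2.53 ± 0.460 FPKM in PC9-GR and 0.452 ± 0.0293 FPKM in PC9. In PC9-GR the levels of MMP9 and MMP14 overlapped and both exceeded MMP7 and MMP16, whereas in PC9 MMP14 was the only one of the 4 above 1 FPKM. MMP2, the substrate of MMP14 activation, is not in the table and was not analysed here.

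Genes of the protease inhibitor list were found in both directions, RECK being higher in PC9-GR and TIMP3, SERPINB5, PI3, SLPI and TFPI2 lower. The list used here is partial and its tally is not that of protease inhibitors at large: of 19 inhibitors, 7 are in the table and 6 were tested, with 1 called higher and 5 lower (background 48.4% and 51.3%). TIMP3, a matrix-bound inhibitor of metalloproteases and the only TIMP listed, fell to 71.1 ± 5.18 FPKM in PC9-GR, against 184.8 ± 16.1 FPKM in PC9. RECK, a membrane-anchored inhibitor of MMP9 and MMP14, rose 3.75-fold to 3.78 ± 1.08 FPKM in PC9-GR, against 1.01 ± 0.201 FPKM in PC9.

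The other lower genes of the inhibitor list were serpins and inhibitors of serine proteases. SERPINB5, or maspin, a serpin known as a tumour suppressor, fell 4.61-fold to 21.5 ± 2.23 FPKM in PC9-GR, against 99.0 ± 24.2 FPKM in PC9. It is in the list by family, and no loss of protease inhibition is read from its fall. The elastase inhibitors PI3 and SLPI fell 3.79-fold and 2.83-fold, to 150.5 ± 8.59 and 36.5 ± 4.31 FPKM in PC9-GR, against 570.9 ± 113.4 and 103.1 ± 13.9 FPKM in PC9. TFPI2 was the fifth lower gene; limma did not call it once library totals were set equal (adjusted p = 0.185, and 2.89e-05 to 0.0156 over the remaining alternatives). SERPINB2 was below the filter, listed at the floor of 0.001 FPKM in all 3 PC9-GR libraries and at 0.863, 1.01 and 1.17 FPKM in PC9. In every library TIMP3 exceeded each of the 4 listed metalloproteases.

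**Figure D2:**
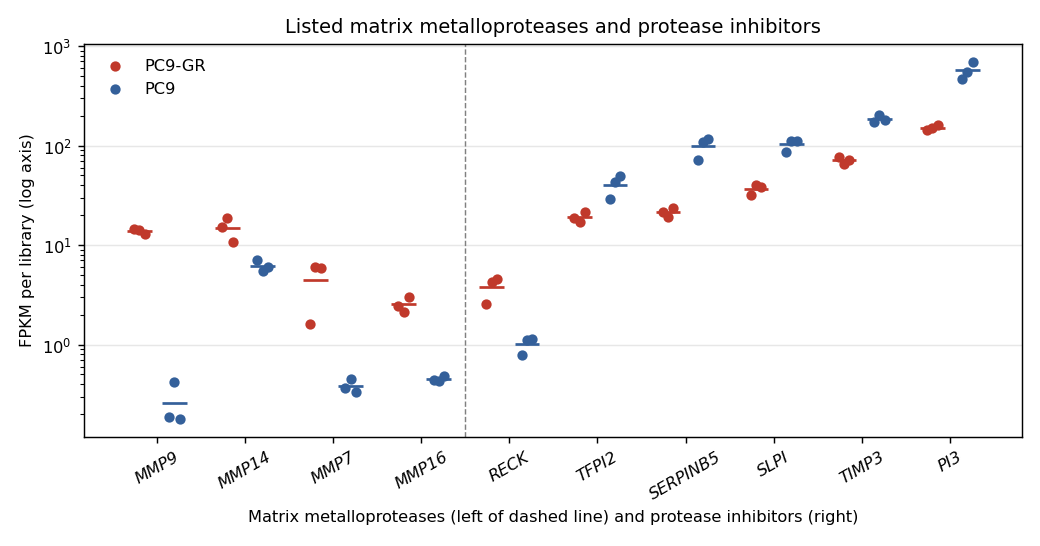
FPKM per library on a log axis for the listed matrix metalloproteases (left of the dashed line) and protease inhibitors (right), PC9-GR in red and PC9 in blue, with lines at the group means (n = 3 each); SERPINB2, at the floor in PC9-GR, is left out. All 4 metalloproteases lie higher in PC9-GR, and of the 6 genes drawn from the inhibitor list RECK lies higher and the other 5 lower.

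Other proteases moved in both directions. Of 36 ADAM and ADAMTS genes 3 are in the table, of which 2 were called higher and 1 lower (background 48.4% and 51.3%). ADAMTS1, a secreted protease that cuts aggrecan and versican, rose 7.44-fold to 4.89 ± 0.293 FPKM in PC9-GR and passed the filter through PC9-GR alone, and ADAM23, which lacks protease activity and acts in adhesion, rose 3.55-fold to 19.3 ± 1.74 FPKM. ADAMTS9 fell 3.91-fold to 1.24 ± 0.149 FPKM in PC9-GR, against 4.86 ± 1.02 FPKM in PC9. Of 27 plasminogen, furin and cathepsin type proteases 5 are in the table and 4 were tested, with 3 called higher and 1 lower (background 48.4% and 51.3%). HTRA3, a secreted serine protease, rose 9.90-fold to 23.0 ± 0.321 FPKM in PC9-GR, and its relative HTRA1 and the membrane protease hepsin (HPN) rose 2.20-fold and 2.21-fold. The lysosomal protease CTSV fell 2.42-fold to 23.8 ± 1.87 FPKM in PC9-GR. TLL1, which trims procollagen, did not reach the filter, with 0.213 ± 0.0453 FPKM in PC9-GR and 0.708 ± 0.231 FPKM in PC9.

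LOXL2 is a secreted amine oxidase that crosslinks collagens, among them collagen IV, and it was the only lysyl oxidase in the table. It measured 33.2, 49.9 and 34.4 FPKM in PC9-GR replicates 1, 2 and 3, against 11.3, 8.39 and 7.66 FPKM in PC9 replicates 1, 2 and 3. The means were 39.2 ± 9.29 FPKM in PC9-GR and 9.13 ± 1.95 FPKM in PC9 (SD, n = 3 each), a ratio of 4.29, and the lowest PC9-GR library was 2.93 times the highest PC9 library. Both groups had 1 library above the other two, replicate 2 in PC9-GR and replicate 1 in PC9, and the coefficient of variation was 23.7% in PC9-GR and 21.3% in PC9. The PC9-GR library highest for LOXL2 was also the highest for MMP14 and SPARC, though not for MMP9 or MFAP5.

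LOXL2 shares its locus in the table with RP11-177H13.2 (ENSG00000253837). That entry measured 4.91, 8.10 and 6.58 FPKM in PC9-GR and 1.56, 1.19 and 1.57 FPKM in PC9, so its libraries were also apart and also peaked in PC9-GR replicate 2. GENCODE 29 places LOXL2 on the minus strand of chromosome 8 over 128140 bp, with AC090197.1 overlapping on the opposite strand and ENTPD4 on the same strand. The LOXL2 values are uncertain to the extent that reads could be assigned to either entry. Of 22 lysyl oxidases and collagen modifying enzymes, LEPRE1 and TGM1 are listed besides LOXL2, and limma called both higher (background 48.4%). LEPRE1, a prolyl hydroxylase of collagen, rose 2.68-fold to 23.9 ± 1.63 FPKM in PC9-GR, and TGM1, the transglutaminase of the cornified envelope, rose 2.07-fold to 1.71 ± 0.106 FPKM.

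SPARC, or osteonectin, is a secreted calcium-binding glycoprotein that binds collagens and modulates cell adhesion and matrix assembly. It measured 214.7, 248.1 and 232.3 FPKM in PC9-GR replicates 1, 2 and 3, against 19.3, 23.4 and 16.6 FPKM in PC9 replicates 1, 2 and 3. The means were 231.7 ± 16.7 FPKM in PC9-GR and 19.8 ± 3.43 FPKM in PC9 (SD, n = 3 each), a ratio of 11.7. The groups were far apart, the lowest PC9-GR library being 9.16 times the highest PC9 library. By mean FPKM it ranked 6 of 1705 listed genes in PC9-GR and 240 in PC9. GENCODE 29 places SPARC on the minus strand at chr5:151661096-151687165 (GRCh38) with CLMAT3 antisense to it, and the table's locus is 2.44 times as wide as the gene.

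Promoter windows from RefSeq (GRCh38.p14), running from 250 bases before RefSeq's start of the gene to 50 after it, were at hand for SPARC and MMP14, both higher in PC9-GR, and are shown so that their elements can be compared. The SPARC window is the minus strand of chr5:151686866-151687165 and the MMP14 window is the plus strand of chr14:22836335-22836634. RefSeq's starts lie inside the genes as GENCODE 29 draws them, by 250 bases for SPARC and by 28 for MMP14. The whole SPARC window is thus within the gene by GENCODE 29, which begins SPARC at the first base printed here, and positions below count from RefSeq's starts. Capitals mark matches, on either strand, to 5 elements. These are the AP-1 site, spelled TGACTCA, the E-box bound by ZEB and SNAI factors, spelled CAGGTG, the GC box bound by the factor SP1, spelled GGGCGG, the repeat GGAGGAGG known from the SPARC promoter, and the TATA box, spelled TATAAA.
SPARC: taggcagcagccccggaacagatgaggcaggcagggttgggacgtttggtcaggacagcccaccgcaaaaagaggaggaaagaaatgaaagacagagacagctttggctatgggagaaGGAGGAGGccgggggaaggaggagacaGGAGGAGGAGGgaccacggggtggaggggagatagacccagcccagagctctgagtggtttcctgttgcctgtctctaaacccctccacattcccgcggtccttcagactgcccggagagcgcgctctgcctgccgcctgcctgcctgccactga
MMP14: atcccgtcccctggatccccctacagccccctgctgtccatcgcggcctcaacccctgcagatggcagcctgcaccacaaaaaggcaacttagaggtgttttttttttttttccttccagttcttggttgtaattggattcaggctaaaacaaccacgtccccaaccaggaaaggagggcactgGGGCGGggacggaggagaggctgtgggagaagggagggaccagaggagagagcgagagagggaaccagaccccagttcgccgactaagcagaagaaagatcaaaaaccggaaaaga
The SPARC window holds 3 matches to the repeat, starting 132, 105 and 102 bases before RefSeq's start, the last 2 overlapping, and 10.9% of 35114 promoter windows of this length hold at least 1. MMP14 holds 1 GC box, starting 66 bases before RefSeq's start, as do 45.0% of the windows. Neither window holds the AP-1 letters (4.95% of windows), the E-box letters (20.6%) or the TATA letters (11.5%). Purines make up 60.0% of the SPARC window and 56.3% of the MMP14 window, against a median of 50.3%. The 2 windows thus share no marked element. Both lack AP-1, E-box and TATA matches, each of which most windows also lack.

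Of 30 matricellular genes, 6 are in the table, and 3 of the 5 besides SPARC were tested and called higher (background 48.4%). CTGF and CYR61, secreted CCN proteins that bind integrins, rose to 36.3 ± 3.25 and 138.3 ± 14.2 FPKM in PC9-GR, against 3.10 ± 0.967 and 49.3 ± 3.58 FPKM in PC9. TGFBI, an adhesion protein induced by TGF-beta, rose 2.22-fold to 332.0 ± 31.4 FPKM in PC9-GR, against 149.8 ± 14.7 FPKM in PC9. TGFBI thus had a higher level than SPARC in both lines with a smaller difference. SMOC1, which belongs to the SPARC family, was listed at the floor in all 3 PC9-GR libraries and at 2.01, 0.473 and 1.62 FPKM in PC9, below the filter. The matrix protein SPON2 was also below the filter, at 0.680 ± 0.348 FPKM in PC9-GR and 0.270 ± 0.0989 FPKM in PC9.

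MFAP5, or MAGP-2, binds fibrillins in microfibrils and carries an integrin-binding motif. It measured 7.09, 5.85 and 4.03 FPKM in PC9-GR replicates 1, 2 and 3, against 67.9, 84.9 and 93.1 FPKM in PC9 replicates 1, 2 and 3. The means were 5.66 ± 1.54 FPKM in PC9-GR and 82.0 ± 12.9 FPKM in PC9 (SD, n = 3 each), so PC9 was 14.5 times PC9-GR. The lowest PC9 library was 9.57 times the highest PC9-GR library. MFAP5 remained measurable in every PC9-GR library, well above the floor of the table. GENCODE 29 places it on the minus strand at chr12:8637346-8662888 (GRCh38), where the only overlapping gene is the processed pseudogene HADHAP2 on the opposite strand.

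The other listed microfibril and elastic fibre genes moved in both directions. Of 27 such genes 5 are in the table, and of the 4 besides MFAP5, 2 were called higher, 1 was called lower and 1 was below the filter (background 48.4% and 51.3%). EFEMP2, or fibulin-4, which is needed for elastic fibre assembly, rose 3.79-fold to 17.6 ± 1.64 FPKM in PC9-GR, and MATN2, a matrilin, rose 2.99-fold to 34.1 ± 1.88 FPKM. LTBP1, which tethers latent TGF-beta to microfibrils, fell 2.47-fold, to 6.07, 6.19 and 6.27 FPKM in PC9-GR, against 18.2, 13.2 and 14.4 FPKM in PC9. HMCN1, an immunoglobulin-domain matrix protein, did not reach the filter, with 0.704 ± 0.364 FPKM in PC9-GR and 0.187 ± 0.0575 FPKM in PC9. FBN1 and FBN2, the fibrillins that MFAP5 binds, are not in the table and were not analysed here.

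Over all 8 matrix lists, 32 genes besides the 5 are in the table and 26 were tested, of which 17 were called higher and 9 lower (background 48.4% and 51.3%). Of the 26, MMP7, MMP16 and ADAMTS1 passed the filter through PC9-GR alone and none through PC9 alone. Of all 1207 tested genes, 196 passed through PC9-GR alone and 100 through PC9 alone. Over the 32 genes in the table, tested or not, the PC9-GR and PC9 libraries did not overlap for 20 higher and 12 lower genes, against 48.3% and 46.6% of listed genes. The median log2 difference of the 32 was 0.67, against 0.29 over all 1705 listed genes, and that of the 26 tested was 1.06, against -0.63 over all 1207 tested genes. The inhibitor list is partial, and the lists were written with results of these data known. Cell surface partners of MMP9 and MMP14 include LRP1, the endocytic receptor that clears MMP9, which rose 2.26-fold to 18.4 ± 3.49 FPKM in PC9-GR. The integrin subunit ITGAV rose 2.11-fold, and ITGA2, a subunit of a collagen receptor, fell 2.09-fold to 46.9 ± 3.84 FPKM in PC9-GR. After quantile normalization limma no longer called ITGA2 (adjusted p = 0.225, and 5.39e-07 to 0.0362 over the remaining alternatives). ITGB3, which pairs with ITGAV, did not reach the filter, with 0.845 ± 0.182 FPKM in PC9-GR and 0.157 ± 0.0952 FPKM in PC9.

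**Figure D3:**
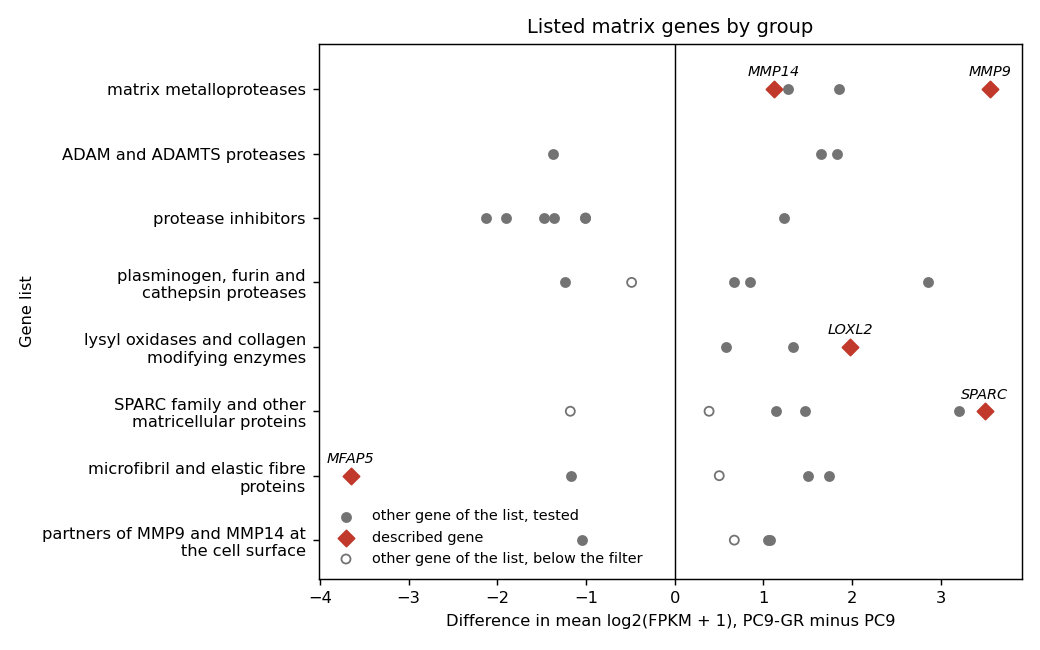
Difference in mean log2(FPKM + 1), PC9-GR minus PC9, for each listed gene counted in the 8 matrix lists, with the 5 described genes as red diamonds, other tested genes as filled circles and genes below the filter as open circles. MFAP5 at -3.65 and MMP9 at 3.56 are the extremes.

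The order of the 5 genes by level changed between the lines. In PC9-GR the order from high to low was SPARC, LOXL2, then MMP14 and MMP9, then MFAP5. MMP14 and MMP9 overlapped there, since MMP14 was 1.05 and 1.33 times MMP9 in replicates 1 and 2 and 0.840 times MMP9 in replicate 3. In PC9 all 3 libraries gave the order MFAP5, SPARC, LOXL2, MMP14 and MMP9, with no overlap between neighbours. SPARC was 30.3, 42.4 and 57.6 times MFAP5 in PC9-GR libraries, against 0.285, 0.276 and 0.178 times in PC9 libraries. The 5 genes summed to 284.7 to 336.6 FPKM in PC9-GR libraries, mostly SPARC, and to 105.8 to 123.7 FPKM in PC9 libraries, mostly MFAP5. They made up 1.70% to 1.98% of the FPKM of all listed genes in PC9-GR and 0.373% to 0.412% in PC9. The share also reflects the lower total of the listed genes in PC9-GR.

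The likeness between profiles depended on the pseudocount wherever a level was low. With each gene centred on its own mean of log2(FPKM + 1) over the 6 libraries, the profiles of MMP9 and SPARC differed by a root mean square of 0.11, against 0.47 between MMP14 and LOXL2 and 0.79 between LOXL2 and SPARC. With a pseudocount of 0.1, chosen here after seeing the data, MMP9 and SPARC differed by 0.91, and their ratios of mean FPKM are 53.0 and 11.7. Among 1202 other tested genes the profile nearest to SPARC was that of VIM, the mesenchymal filament protein vimentin, which is 12.3-fold higher in PC9-GR, at 0.11 with either pseudocount, though ILDR2 came nearer with the smaller one (0.078). VIM was also nearest to MMP9 on the log2(FPKM + 1) scale (0.11), but differed from it by 0.90 with a pseudocount of 0.1, where LINC00942 (0.25) and CDH13 (0.28) were nearest. Next on the log2(FPKM + 1) scale came IL32, a cytokine, and CDH13, a cadherin, for MMP9 (0.14 and 0.19), and the desaturase SCD and CDH13 for SPARC (0.16 and 0.17). The nearest to MMP14 were the transporter SLC29A4 (0.11), LINC00460 (0.13) and XXbac-BPG248L24.12 (0.13), of which the last was nearest with the smaller pseudocount (0.14). For LOXL2 they were APOE, an apolipoprotein (0.13), FABP6, a bile acid binding protein (0.14), and CA12, a carbonic anhydrase (0.16), none of them among the nearest 3 with the smaller pseudocount. MFAP5 had no profile as near, with SPRR3, a cornified envelope protein, at 0.25, ACKR2, a chemokine scavenger, at 0.31 and AC019349.5 at 0.31, and none of these was among its nearest 3 with the smaller pseudocount. With 2 groups the likeness mostly measures a similar difference between the lines, and it says nothing of shared control.

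The listed genes that flank the 5 on their chromosomes lie at widely different distances by the table's loci. SLC7A7 and SLC7A8, amino acid transporters that flank MMP14 at 6.74 and 276.3 kb, rose 2.20-fold and 20.5-fold. MMP9, apart from RP11-465L10.10 at its own locus, which was also higher in PC9-GR, lies between SYS1-DBNDD2 at 598.3 kb and the receptor CD40 at 58.1 kb, which fell 2.57-fold and 2.41-fold. SPARC has ANXA6, an annexin, at 503.2 kb on one side (2.52-fold higher) and ADRA1B, an adrenergic receptor, at 8239 kb on the other (2.16-fold lower). LOXL2, apart from RP11-177H13.2 at its own locus, is flanked by HR, a nuclear receptor corepressor, at 1164 kb, which fell 2.22-fold, and by STC1, a secreted glycoprotein, at 384.2 kb, which rose 3.00-fold. RIMKLB, 18.7 kb from MFAP5, fell 2.10-fold, and LINC00937, 237.6 kb away on the other side, was below the filter with overlapping libraries. By the ratios in the authors' deposited table, 19 of 93 listed genes were higher on chromosome 14 (MMP14), 28 of 49 on chromosome 20 (MMP9), 41 of 65 on chromosome 8 (LOXL2), 43 of 84 on chromosome 5 (SPARC) and 41 of 85 on chromosome 12 (MFAP5), against 51.1% in the whole table.

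Markers of other cell types could be checked only as far as the table lists them. In bulk RNA, fewer cells of a type and less RNA per cell cannot be told apart. Of 12 fibroblast markers only PDGFRB is listed, at 2.38 to 3.77 FPKM in PC9-GR and 0.0661 to 0.143 FPKM in PC9. Of 18 macrophage and neutrophil markers 5 are listed, with summed levels of 46.2 to 57.0 FPKM in PC9-GR and 20.5 to 24.6 FPKM in PC9. The lysosomal protein CD68 made up most of these sums at 38.4 ± 3.61 FPKM in PC9-GR and 18.6 ± 1.05 FPKM in PC9. The integrins ITGAX and ITGAM and the actin regulator CORO1A rose 23.8-fold, 12.7-fold and 1.94-fold. The ITGAM ratio was 30.7 without PC9 replicate 2, since ITGAM measured 0.169, 1.24 and 0.303 FPKM in PC9 replicates 1, 2 and 3. Lysozyme (LYZ), too low for the filter, averaged 0.142 FPKM in PC9-GR and 1.09 FPKM in PC9. None of 8 endothelial markers is listed, and collagen I, PTPRC and CSF1R are not in the table and were not analysed here. Of 15 epithelial markers the tight junction gene CLDN1 and the transcription factor OVOL1 are listed, and they fell 3.34-fold and 3.44-fold. CLDN1 lay between 22.7 and 31.8 FPKM in PC9-GR and between 74.2 and 94.7 FPKM in PC9. The part of these markers in the values of MMP9, MMP14, LOXL2, SPARC and MFAP5 was not tested, and EPCAM and CDH1, which would check the epithelial label, are not in the table.

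The direction of each of the 5 differences was the same under the scalings run, but their sizes were not. Scaling the libraries to equal totals over the listed genes moved the median gene by 0.61 on the log2 scale and gave SPARC a ratio of 20.4, LOXL2 7.43, MMP14 4.18 and MMP9 92.6, with PC9 8.26 times PC9-GR for MFAP5. Relative to that shift the log2 differences were 3.67 for SPARC, 2.12 for LOXL2, 1.23 for MMP14, 3.44 for MMP9 and -3.53 for MFAP5. Scaling to equal totals multiplies each library by 1 factor, so these values lie near the deposited ones by construction and nothing is read from that. Median-ratio scaling lowered the differences of MMP9, MMP14, LOXL2 and SPARC, with MMP14 at 0.84 on the log2 scale against 1.12 as reported. The listed genes are only part of the transcriptome and were selected as changed, so their totals need not be equal between the lines. Deposited FPKM is scaled to the mapped fragments of each library, so the ratios under equal totals show only how far sizes depend on scaling. Whether the deposited scaling is free of a shift between the lines cannot be checked from the listed genes.

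**Figure D4:**
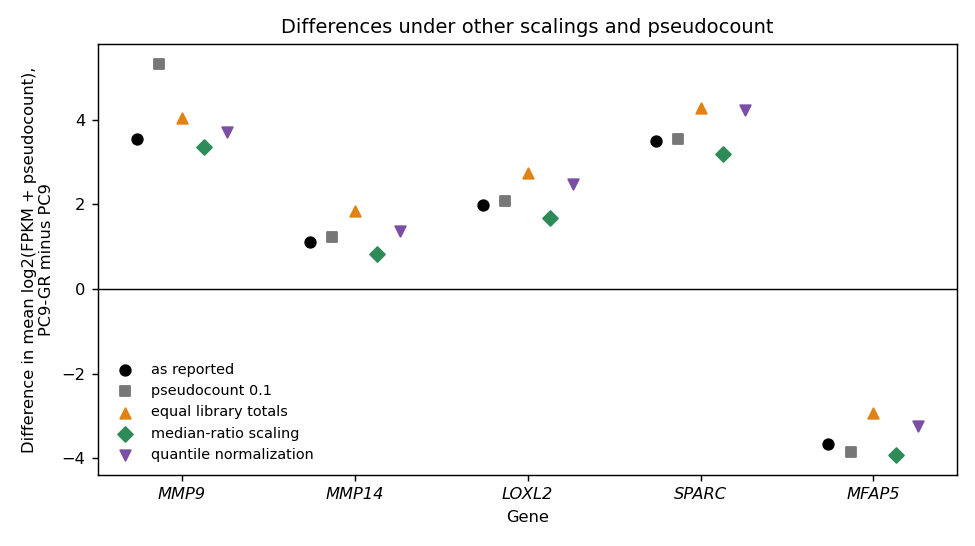
Difference in mean log2(FPKM + pseudocount), PC9-GR minus PC9, of each gene as reported, with a pseudocount of 0.1, with equal library totals, with median-ratio scaling and under quantile normalization. The 4 higher genes stay above 0 and MFAP5 below 0 under each, and MMP9 moves most, to 5.33 with the smaller pseudocount.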

How the data were processed

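RNA was measured in 3 PC9-GR and 3 PC9 libraries, made with Agilent's strand-specific SureSelect kit from Trizol-extracted total RNA, per the labels. The submitters' processing notes name TopHat and Cufflinks; versions, build, annotation and strandedness of the quantification were not given in the sources used here. Per the file headers, the authors deposited FPKM for each library and each group, with a p-value, a q-value and the ratio T1/Control (PC9-GR over PC9), also as a log2 ratio. The authors had selected the listed genes.

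FPKM was used as deposited. Members were read by symbol and given as mean, SD and ratio of means. Genes reaching 1 FPKM in 3 or more of the 6 libraries (1207 of 1705; 498 left out) were fitted with limma 3.58.1 (R 4.3.3) on log2(FPKM + 1), group as the only term, variance trend, Benjamini-Hochberg adjustment, called under 0.05; all 5 members passed the filter. A log2 difference on this scale understates the change of low genes. The step was also run on simulated normal values in which most genes were unchanged. The deposited table was selected for change, so that run checks the code and not the calls made here.

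The members, the 8 matrix and 4 marker lists and the naming rule were chosen with earlier results of these data known. The rule named every other listed gene of a list with at most 6, otherwise up to 3 called genes per direction, plus the 3 nearest profiles and the flanking listed genes. TIMP3, TFPI2 and SERPINB2 fall outside that rule and were named besides, with their values known. One gene of the protease inhibitor list is not reported here and was left out of the list counts. Older symbols (LEPRE1, CTGF, CYR61) follow the table. Alternatives were another pseudocount, 2 other filters, 3 other scalings, leaving out each library and a replicate block. Chosen after seeing the data were a pseudocount of 0.1 for the profiles and ratios of listed genes without each library in turn. Descriptions used Python 3.11.15 with pandas 2.3.3.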

Additional observations from a re-analysis of the deposited data

How the results depend on the processing

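Of 1207 tested genes 584 were called higher and 619 lower, and of the 26 tested matrix genes 17 were higher and 9 lower. With a filter at 5 FPKM, which tests fewer genes (629), the calls were 234 and 393, and 10 matrix genes were higher. The other alternatives left these 4 counts within 1.5 times of those values. The log2 difference of MMP9 was 5.33 with a pseudocount of 0.1, against 3.56. With equal library totals the differences were 4.05 for MMP9, 1.84 for MMP14, 2.73 for LOXL2, 4.28 for SPARC and -2.92 for MFAP5. With median-ratio scaling, which moved the median gene by -0.23, they were 3.35 for MMP9, 0.84 for MMP14, 1.69 for LOXL2, 3.19 for SPARC and -3.92 for MFAP5. The MMP14 value there was its lowest under any alternative. Under quantile normalization they were 3.70 for MMP9, 1.38 for MMP14, 2.48 for LOXL2, 4.23 for SPARC and -3.24 for MFAP5. No alternative run changed the sign of any of the 5. Leaving out 1 library at a time gave 3.51 to 3.65 for MMP9, 0.94 to 1.32 for MMP14, 1.80 to 2.13 for LOXL2, 3.38 to 3.62 for SPARC and -3.81 to -3.47 for MFAP5. With the replicate number as a block, 586 genes were called higher and 619 lower, and the matrix counts stayed at 17 and 9. By the labels, same-numbered libraries share only a number. Their deviations from the group means correlated at -0.10, 0.08 and 0.16, against -0.29 to 0.20 for differently numbered pairs. With 3 libraries per group these values cannot show whether a batch was shared. Depth is unknown, so what low levels such as MMP9 in PC9 can resolve cannot be given.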
